A study of Danio rerio with 80 samples.

Results

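The genes described here are 10 of the zebrafish genes that make, load, take up or break down monoamines: th, th2, ddc, dbh, tph1a, tph2, slc6a3, slc6a4a, slc18a2 and mao. They were picked out of the table by gene symbol, and each of the 10 symbols matched 1 of the 23473 entries of the expression table. Levels are in RPM, reads per 1000000 on the deposited scale, on which the values of a library sum to more than 1000000. Of the 10, 9 had a mean of at least 1 RPM over all libraries and were tested together with all 16870 such genes. The other one, slc18a2, had a mean of 0.844 RPM and is described by its reads.

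Monoamines are the transmitters dopamine, noradrenaline and serotonin, and related amines such as the pineal hormone melatonin. A hydroxylase that needs tetrahydrobiopterin acts on tyrosine (th, and th2 by its name) or tryptophan (tph1a, tph2). The decarboxylase encoded by ddc then makes dopamine or serotonin, and dopamine beta-hydroxylase (dbh) turns dopamine into noradrenaline. The vesicular transporter slc18a2 packs the amines into vesicles, slc6a3 and slc6a4a take dopamine and serotonin back into the cell, and mao, the single monoamine oxidase of zebrafish, breaks them down. In fish the cells that make them are few and lie in separate nuclei, among them the hypothalamus, the raphe and the locus coeruleus, while the pineal gland makes serotonin on the way to melatonin.

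RNA was sequenced from single whole brains of 80 adult wild-type zebrafish of the AB strain. Embryos and larvae were exposed from 6 to 96 hours after fertilisation. A mixture of persistent organic pollutants was given at 10 times (POP10) or 70 times (POP70) human blood levels. Perfluorooctane sulfonic acid (PFOS), a fluorinated surfactant, was given alone at 0.3 mg/L (PFOS10) or 2.06 mg/L (PFOS70). POP10 and POP70 are listed with these same PFOS levels, 0.3 and 2.06 mg/L, and PFOS10 and PFOS70 with the same multiples, 10 and 70. Every group received 0.1% dimethyl sulfoxide, which served alone as control. Every one of the 5 conditions comprised 4 exposure replicates, which carry the numbers 3 to 6, with 2 females and 2 males in each, so there were 16 fish per condition and 8 per condition and sex. Fish of number 3 were 240 days old, those of number 4 were 233, those of number 5 were 226 and those of number 6 were 219 days old, so age and number cannot be told apart.

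Each library held 9.01 to 20.3 Mreads (1 Mread is 1000000 reads), with a median of 12.1 Mreads, and 1 RPM stood for 7.12 to 14.4 reads. The summed level of 5 neuronal genes spanned 13.15 to 13.60 on the log2 scale over the 80 fish. This sum is mostly that of snap25a (mean of 6828 RPM), and elavl3 of the same list spanned 6.13 to 9.51. The summed level of 7 pineal and retina genes spanned 2.65 to 8.62. The first principal component of all tested genes, the tested members among them, held 37.3% of their variance and is called the composition component here. The name is only a label. Whether tissue content or the quality of RNA or library lies behind the component was not tested. It averaged -0.36 ± 0.79 in control fish (SD, n = 16) and 0.40 ± 1.0975 in PFOS10 fish, in units of its own SD. In whole brains, fewer cells of a type and less RNA per cell cannot be told apart.

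On GRCz11, the build named in the submitters' processing notes, the tyrosine hydroxylase genes lie on chromosome 25 at 24055341 to 24074500 (th, minus strand) and on chromosome 4 at 17380578 to 17391091 (th2, minus strand). The tryptophan hydroxylase genes lie on chromosome 25 at 8139220 to 8160030 (tph1a, minus strand) and on chromosome 18 at 16989764 to 17001056 (tph2, minus strand). The decarboxylase gene ddc lies on chromosome 16 at 8298542 to 8342749 and slc6a3 on the same chromosome at 248239 to 263658, both on the minus strand. The gene dbh lies on chromosome 10 at 10564261 to 10607118, slc6a4a on chromosome 15 at 28609025 to 28618502 and mao on chromosome 9 at 33660964 to 33725972, all on the minus strand. The vesicular transporter gene slc18a2 lies on the plus strand of chromosome 17 at 23782324 to 23811332. These spans cover exons and introns of each gene. Only dbh shared bases with another listed gene: it overlaps the sarcosine dehydrogenase gene sardh by 708 bp. Whether reads were counted by strand is not given in the sources used here, and dbh and sardh did not vary together over the 80 fish (Pearson's r = 0.08).

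None of the 9 tested members differed in adult level between exposed and control fish past the threshold. In limma's test over both sexes, 0 of 9 members were called at an adjusted p of 0.05 in any of the 4 exposures, and the background was as sparse: 0.0119% of all tested genes were called in POP10, 0.00593% in PFOS10 and 0% in POP70 and PFOS70. Without adjustment, p was under 0.05 for 1 of 9 members in POP10 (mao), for 1 in PFOS10 and for 1 in PFOS70 (slc6a3 in both), and for 0 in POP70. The share of all tested genes with such a p was 4.01% in POP10, 13.9% in PFOS10, 6.22% in PFOS70 and 1.88% in POP70. An F test of any exposure called 0 of 9 members, with adjusted p from 0.907 to 0.988, beside 0.0296% of all genes. The 4 comparisons share the same 16 control fish. In PFOS10 fish 8 of 9 members stood above control, with a median log2 difference of 0.16 beside 0.06 over all tested genes. In POP10 it was 6 of 9 with a median of 0.17 beside 0.02, in POP70 6 of 9 with 0.10 beside 0.01, and in PFOS70 6 of 9 with 0.08 beside 0.04. Each median over all tested genes was above 0, so most genes stood above control too. Several members also varied together from fish to fish, so they do not count as separate cases.

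**Figure D1:**
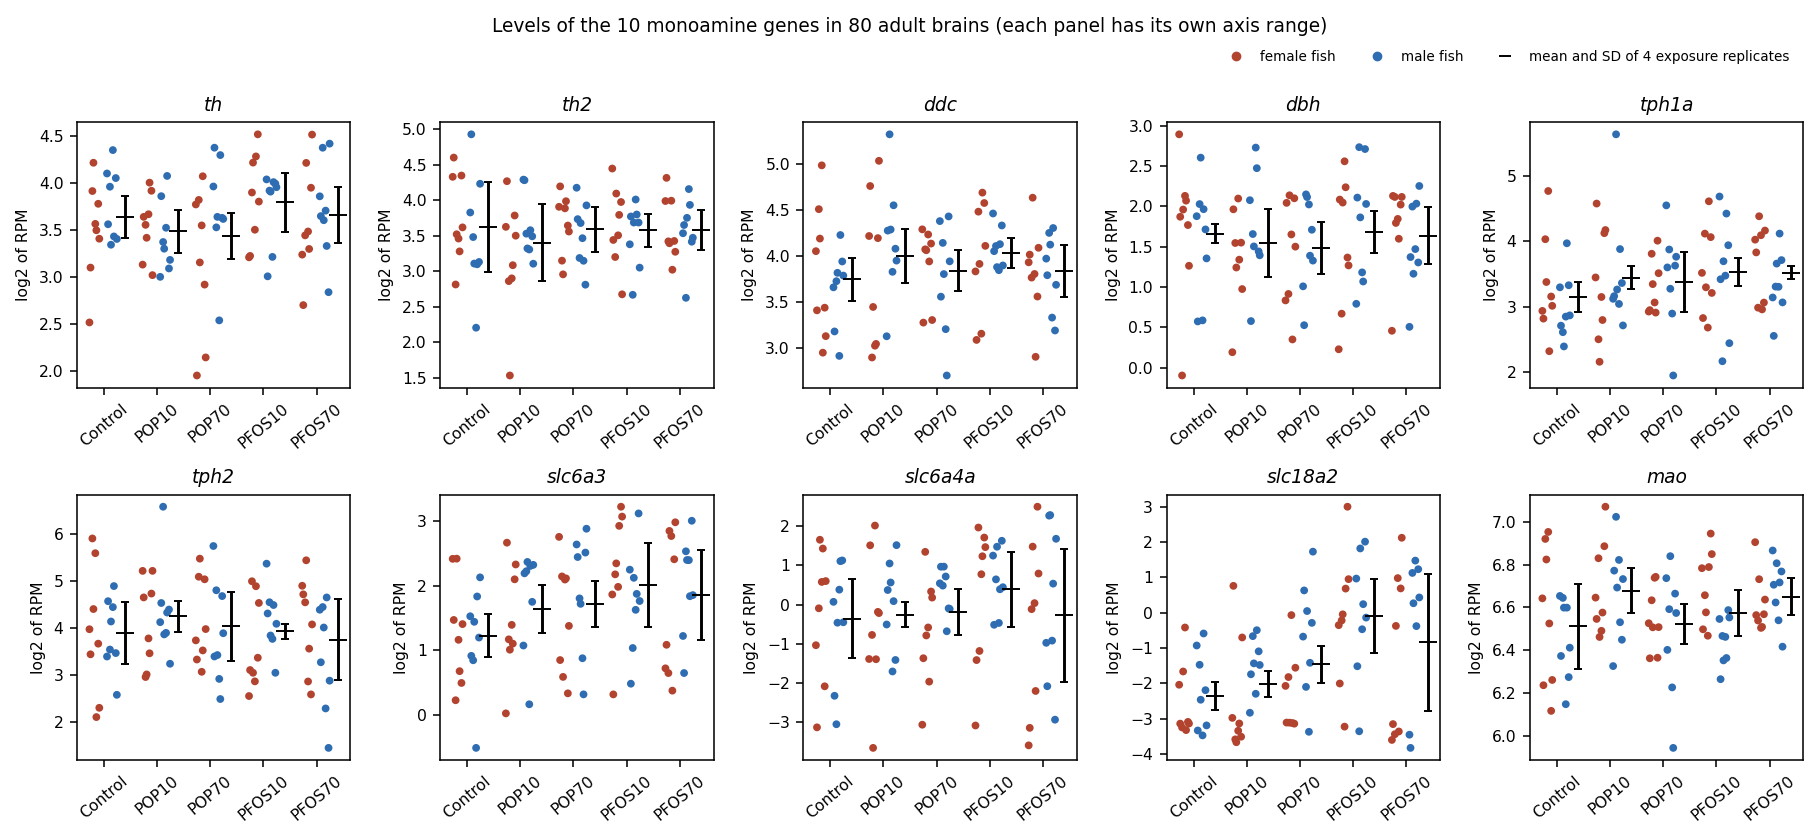
Level of each of the 10 genes (log2 of RPM, vertical axis, with its own range in each panel) in each fish of the 5 conditions. Points are fish, females in red and males in blue, and the black mark is the mean and SD of the 4 exposure replicate means. The conditions overlap in every panel, and the slc18a2 panel has its lowest condition mean in control (-2.36) and its highest in PFOS10 (-0.11).

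For th, th2 and dbh the conditions lay close together. The level of th, the rate-limiting enzyme of dopamine and noradrenaline synthesis, ran from 5.72 to 20.4 RPM in control fish with a median of 11.8. Its median was 15.1 RPM in PFOS10, 12.4 in PFOS70, 12.3 in POP70 and 11.1 in POP10, so the order was PFOS10, PFOS70, POP70, control, POP10. No neighbours in this order differed beyond their spread, and the fitted log2 difference from control lay between -0.20 (POP70) and 0.16 (PFOS10), each with an SE of 0.18. The gene th2, named as a second tyrosine hydroxylase, marks neurons of the hypothalamus in zebrafish. It had medians between 11.3 RPM (POP10, control and PFOS70) and 12.9 RPM (PFOS10). Its differences from control lay between -0.22 ± 0.20 (SE) in POP10 and -0.04 ± 0.20 in POP70. The gene dbh, which marks noradrenergic cells, was low in every fish: 8 to 68 reads per library, with condition medians of 2.88 to 3.86 RPM. Its differences lay between -0.17 and 0.02, with an SE of 0.24.

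The decarboxylase and the tryptophan hydroxylases varied far more between fish than between conditions. Control fish had 7.52 to 31.6 RPM of ddc with a median of 13.5, and POP10 fish 7.43 to 39.9 with a median of 17.6, which overlap over nearly their whole range. The log2 difference of ddc from control was 0.26 ± 0.20 (SE) in POP10, 0.29 ± 0.20 in PFOS10, 0.10 ± 0.20 in POP70 and 0.09 ± 0.20 in PFOS70. The hydroxylase tph1a, known in zebrafish from the pineal gland, the hypothalamus and the retina, had a median of 7.88 RPM in control fish (5.001 to 27.3). Its median in exposed fish was 11.3 RPM in PFOS10 (4.50 to 25.8), 11.3 in PFOS70 (5.88 to 20.9), 10.8 in POP70 (3.87 to 23.5) and 9.29 in POP10 (4.47 to 49.8). All 4 exposed medians were thus above that of control, and the ranges overlapped. The fitted difference of tph1a was 0.38 ± 0.25 in PFOS10, 0.37 ± 0.25 in PFOS70, 0.29 ± 0.25 in POP10 and 0.23 ± 0.25 in POP70, with adjusted p from 0.431 to 0.9997. Over the means of the 4 exposure replicates, the two-sided exact permutation p for tph1a in PFOS70 was 0.0571 (0.114 adjusted over the 4 exposures), with PFOS70 above control in 4 of 4 numbers. For tph2, the hydroxylase of raphe neurons and of the pineal gland, single fish spanned 2.73 to 95.5 RPM. Its median was 18.8 RPM in POP10, 16.5 in PFOS70, 15.7 in PFOS10, 14.2 in control and 14.1 in POP70, and its differences lay between -0.15 and 0.35 with an SE of 0.35. The 95% interval of the POP10 difference of tph2, from -0.35 to 1.04, does not exclude a doubling.

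The dopamine transporter gene slc6a3 had the widest differences from control of any tested member in the fits over both sexes. Control fish held 0.701, 2.48 and 5.36 RPM of slc6a3 (lowest, median and highest). The same 3 values were 1.298, 4.45 and 8.06 RPM in PFOS70, 1.25, 4.16 and 9.38 in PFOS10, 1.25, 3.89 and 7.40 in POP70, and 1.02, 3.83 and 6.37 in POP10. Each exposed median was above that of control, and every exposed range overlapped the control range. The log2 difference of slc6a3 was 0.78 ± 0.31 (SE, 95% interval 0.17 to 1.395) in PFOS10, with an unadjusted p of 0.0125 and an adjusted p of 0.354 (limma). By the same limma test it was 0.63 ± 0.31 in PFOS70 (adjusted p = 0.711), 0.49 ± 0.31 in POP70 and 0.41 ± 0.31 in POP10 (adjusted p of 0.9997 and 0.930). Over the means of the 4 exposure replicates, the two-sided exact permutation p was 0.114 in PFOS10 and 0.171 in PFOS70. It was 0.0857 in POP70 and 0.171 in POP10, and each became 0.171 after adjustment over the 4 exposures. By number, PFOS10 and PFOS70 were each above control in 3 of 4 numbers. In number 3 both were below, with a mean log2 level of 1.23 in PFOS10 and 0.92 in PFOS70 against 1.58 in control. Without number 3, and so without the number in which PFOS70 was below control, the PFOS70 difference was 1.06 (adjusted p = 0.0533, limma). The composition component moved with slc6a3 (r = 0.60 over 80 fish), and with the component in the model the PFOS10 difference was 0.39.

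The serotonin transporter gene slc6a4a had few reads, 0 to 67 per library with none in 5 fish. Its median level was 1.64 RPM in PFOS10, 1.03 in POP70, 0.993 in control, 0.974 in PFOS70 and 0.870 in POP10. The log2 difference in PFOS10 was 0.75 ± 0.55 (SE, 95% interval -0.35 to 1.85, adjusted p = 0.496, limma). With the composition component in the model it was -0.06, close to 0 beside the SE of 0.55 in the fit without it. The other 3 differences lay between 0.08 and 0.16.

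**Figure D2:**
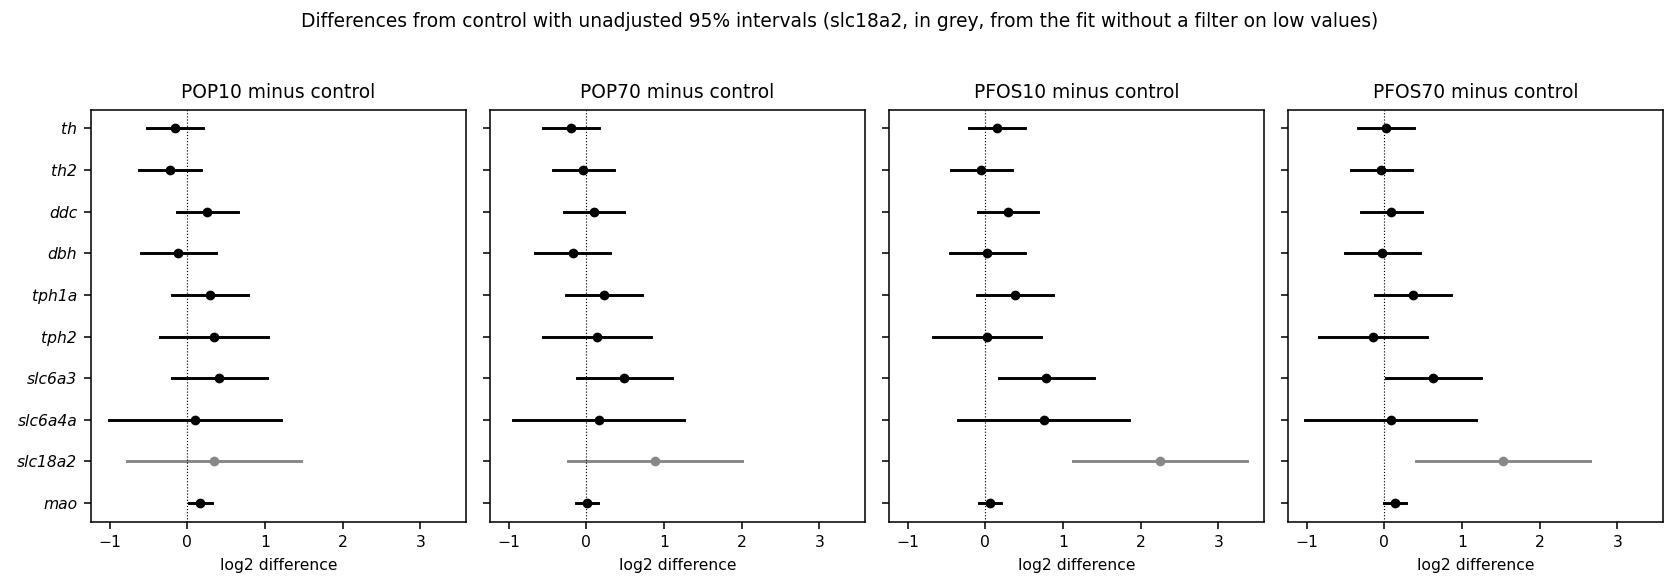
Log2 difference of each gene from control over both sexes (horizontal axis) for each exposure, with its unadjusted 95% interval, n = 16 fish per condition. Among the 9 tested members, the intervals of slc6a3 lie above 0 in PFOS10 (0.17 to 1.395) and PFOS70 (0.02 to 1.24). That of mao lies above 0 in POP10 (0.02 to 0.31). The values of slc18a2, in grey, come from the fit without a filter on low values. Its intervals lie above 0 in PFOS10 (1.13 to 3.37) and PFOS70 (0.41 to 2.64), with adjusted p of 0.311 and 0.596 (limma). None of these differences passed the adjusted test.

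The monoamine oxidase gene mao varied least, with an SD of 0.22 on the log2 scale over the 80 fish. Its levels were 69.4, 94.5 and 124 RPM in control fish (lowest, median and highest) and 80.3, 102 and 134 RPM in POP10 fish. The POP10 difference was 0.17 ± 0.07 (SE) on the log2 scale, a 1.12-fold difference, with an unadjusted p of 0.0256 and an adjusted p of 0.930 (limma). POP10 was above control in 4 of 4 numbers, yet without number 6 the difference was 0.05. Control fish of number 6 had the lowest mean of any exposure replicate, 6.27. The other differences of mao were 0.14 ± 0.07 in PFOS70, 0.06 ± 0.07 in PFOS10 and 0.01 ± 0.07 in POP70.

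The vesicular transporter gene slc18a2 was the least abundant member, and its reads were the most uneven between conditions. No read was found in 17 of 80 fish: 5 of 16 each in control and PFOS70, 4 in POP10, 3 in POP70 and 0 in PFOS10. Control fish had 0 to 8 reads each and 34 in all. The 16 POP10 fish had 50 reads in all, the POP70 fish 91, the PFOS10 fish 238 and the PFOS70 fish 180, with at most 13, 25, 68 and 35 reads in a fish. As mean RPM of the 4 exposure replicates, with a fish without reads set to 0.9 read as in the deposited values, slc18a2 stood at 0.257 ± 0.108 in control and 0.380 ± 0.131 in POP10 (SD, n = 4). It stood at 1.70 ± 1.36 in PFOS10, 1.24 ± 0.957 in PFOS70 and 0.644 ± 0.351 in POP70. The order was thus control, POP10, POP70, PFOS70 and PFOS10.

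In PFOS10 the 4 exposure replicates did not overlap those of control. Their mean log2 levels of slc18a2 were -0.73, -0.45, -0.69 and 1.45 in numbers 3, 4, 5 and 6, against -2.36, -2.21, -1.95 and -2.90 in control. The mean difference was 2.25, and the two-sided exact permutation p of 0.0286 is the smallest that 4 against 4 replicates can give. Adjusted over the 4 exposures it was 0.114, and the exact p of the paired differences was 0.125, the smallest that 4 pairs allow. Among the 10 members this was the only such separation in PFOS10. Of all tested genes, a set without slc18a2 and other genes as low, 1.45% had exposure replicate means that did not overlap. In POP10 (0.978% of genes), POP70 (0.599%) and PFOS70 (0.824%) 0 members were apart. On the log2(RPM + 1) scale the PFOS10 difference was 0.86 with the same exact p. In limma's fit without a filter on low values the PFOS10 difference of slc18a2 had an unadjusted p of 0.000146 and an adjusted p of 0.311, so it was not called. With the replicate number as a block its adjusted p was 0.110. With the composition component in that fit, the difference was 1.42 with an adjusted p of 0.9997, and with a correlation between fish of 1 exposure replicate the adjusted p was 0.795.

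PFOS70 fish were split by number for slc18a2. The 4 fish of number 3 had 0 reads together, which allows a level of up to 0.0723 RPM (3 reads over the 4 libraries, counting error only). The fish of numbers 4, 5 and 6 had 42, 53 and 85 reads. The mean PFOS70 log2 difference was 1.53, with an exact permutation p of 0.143, and PFOS70 was above control in 3 of 4 numbers. In POP70 it was 0.89 (exact p = 0.0571) and in POP10 0.34 (exact p = 0.229). The composition component moved with slc18a2 over the 80 fish (r = 0.68, rho = 0.65). Its part in the PFOS differences was not tested. The fit above cannot give it, because the component comes from the same libraries and its mean differed between control and PFOS10 fish.

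**Figure D3:**
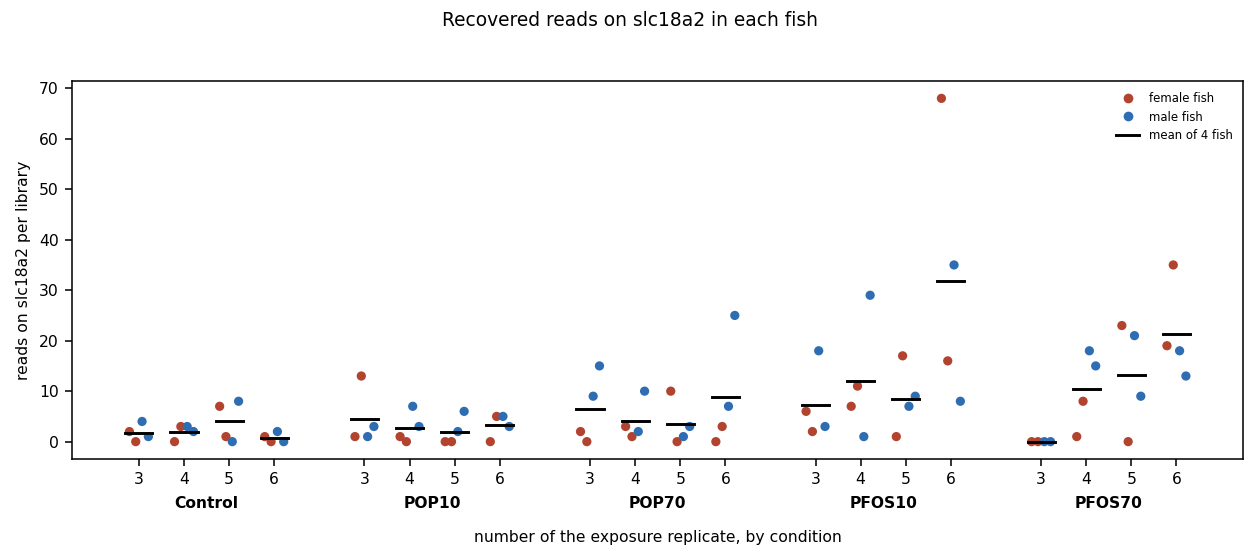
Recovered reads on slc18a2 (vertical axis) in each fish by condition and number of the exposure replicate (horizontal axis). Points are fish, females in red and males in blue, and bars are means of 4 fish. Control fish lie between 0 and 8 reads, PFOS10 fish between 1 and 68, and all 4 PFOS70 fish of number 3 lie at 0.

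In females alone and in males alone 0 of 9 members were called in any exposure, beside 0.0178% of all genes for POP10 in females and 0% in the other 7 comparisons. The smallest unadjusted p in females was that of slc6a3 in PFOS10, with a log2 difference of 0.96 ± 0.43 (SE, adjusted p = 0.753, limma), and in males that of mao in PFOS70, with 0.22 ± 0.10 (adjusted p = 0.872). In males the PFOS10 difference was 1.06 ± 0.78 (SE) for slc6a4a and 0.61 ± 0.43 for slc6a3. In the test of exposure by sex 0 of 9 members and 0% of all genes were called for each exposure.

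Between females and males over all conditions 0 of 9 members were called, against 1.04% of all tested genes. In control fish alone it was 0 of 9 and 0%. The sex difference (female minus male) lay between -0.47 ± 0.35 (SE) for slc6a4a and 0.07 ± 0.16 for tph1a, with adjusted p from 0.648 to 0.966 (limma). Within the 20 exposure replicates, slc18a2 was on average 0.77 lower in females on the log2 scale, from -0.97 in males to -1.74 in females. It was higher in females in 7 of 20 replicates, and the two-sided permutation p of 0.0178 became 0.178 after adjustment over the 10 members. POP70 males held 0.721 RPM of slc18a2 at the median and POP70 females 0.177, while in PFOS10 the medians were 1.04 and 0.912.

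The mixture and PFOS alone were compared at matched levels. In POP10 against PFOS10 and in POP70 against PFOS70, 0 of 9 members and 0% of all genes were called. Among these 9 the largest difference was that of slc6a4a, 0.65 lower in POP10 than in PFOS10 (95% interval -1.76 to 0.45). Of the other members at these levels, slc6a3 was 0.37 lower in POP10 than in PFOS10 (-0.99 to 0.24) and 0.14 lower in POP70 than in PFOS70 (-0.75 to 0.47), which leaves room for differences of either sign. The level of slc18a2, in the fit without a filter on low values, was lower in POP10 than in PFOS10 by a log2 difference of -1.91 (95% interval -3.03 to -0.79, unadjusted p = 0.00111, adjusted p = 0.775, limma). Its POP10 exposure replicate means, -1.70, -2.34, -2.32 and -1.70 in numbers 3 to 6, did not overlap those of PFOS10. This was so for 1.55% of all tested genes, a set that leaves out slc18a2. Between POP70 and PFOS70 the slc18a2 difference was -0.64 (-1.75 to 0.48). Between the high and the low level of each, 0 of 9 members and 0% of genes were called. The level of mao was 0.16 lower in POP70 than in POP10 (95% interval -0.30 to -0.01), with an unadjusted p of 0.0369 and an adjusted p of 0.9996 (limma).

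What did pass the test was the number of the exposure replicate. Numbers differ in age, and the labels do not say what else they share. Across the 4 numbers 2 of 9 members were called, th2 and slc6a4a, where 61.6% of all tested genes were, so the members stood below the background. The share of variance that went with number was 0.30 for th2, 0.15 for slc6a4a, 0.10 for tph2 and 0.003 for tph1a.

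The gene th2 was highest in the oldest fish. Its levels were 10.4, 17.0 and 30.4 RPM (lowest, median and highest) in the 20 fish of number 3, 2.89, 9.59 and 17.1 in number 4, 4.61, 11.2 and 17.8 in number 5, and 6.38, 11.3 and 20.3 in number 6. The ranges overlap, but the median of number 3 lies near the top of the range in number 4. Against number 3, th2 fell by 0.83 ± 0.15 (SE) on the log2 scale in number 4 (adjusted p = 1.2e-05), by 0.55 ± 0.15 in number 5 (adjusted p = 0.00402) and by 0.53 ± 0.15 in number 6 (adjusted p = 0.00291, limma). It was the only member called lower in these 3 comparisons, in which 5.29%, 2.79% and 6.97% of all genes were lower and 41.7%, 27.1% and 32.9% were higher. Numbers 4, 5 and 6 did not differ in th2 past the threshold. With the composition component in the model the difference in number 6 was -0.40 and lost its call (limma, adjusted p = 0.394). The call across the 4 numbers stayed with the component (adjusted p = 0.00373) and with a correlation between fish of 1 exposure replicate (0.000389). Without number 3 the adjusted p was 0.158.

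The serotonin transporter gene slc6a4a was lowest in the oldest fish. Its median was 0.437 RPM in number 3, 1.52 in number 4, 1.18 in number 5 and 1.31 in number 6. Against number 3 it rose by 1.45 ± 0.46 (SE) in number 4 (adjusted p = 0.00752) and by 1.47 ± 0.46 in number 6 (adjusted p = 0.00720), and the difference was 1.12 ± 0.46 in number 5 (adjusted p = 0.0578, limma). The composition component moved with number too, from -0.87 ± 1.19 in number 3 (SD, n = 20) to 0.32 ± 0.58, -0.07 ± 0.55 and 0.62 ± 0.88 in numbers 4, 5 and 6. With it in the model slc6a4a was no longer called across numbers (limma, adjusted p = 0.802), and its difference in number 6 was -0.14. The call was also lost with quantile normalization (adjusted p = 0.303), with library weights (0.132) and without number 3 (0.725, limma). The gene slc6a3 was higher in number 6 than in number 3 by 0.64 ± 0.26 (limma, adjusted p = 0.0479), though it was not called across the 4 numbers (adjusted p = 0.0857), and this difference was -0.26 with the component in the model.

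Between numbers 4 and 5, 4 and 6, and 5 and 6, 0 of 9 members were called, where 3.08%, 20.7% and 20.3% of all genes were. The clock gene nr1d1 encodes a repressor, and its transcript swings over the day. It had means of 7.16 ± 0.43, 5.08 ± 0.57, 4.21 ± 1.80 and 7.22 ± 0.37 on the log2 scale in numbers 3, 4, 5 and 6 (SD, n = 20). Fish of number 5 were not alike in it: their median was 3.37, and the highest, a PFOS70 fish, stood at 7.92. Every PFOS70 fish of number 5 lay above that median, since the lowest of all 16 PFOS70 fish stood at 4.21. Same-numbered fish of different conditions were thus not always alike in nr1d1. Numbers thus also differed in this gene, and its part in the th2 and slc6a4a differences was not tested. The summed level of 6 hypothalamus genes was 8.31 ± 0.80 in number 3 (SD, n = 20), 8.39 ± 0.63 in number 4, 8.75 ± 0.61 in number 5 and 8.61 ± 0.81 in number 6. These means differed by less than their SDs, and the sum is mostly that of oxt (mean of 281 RPM). Whether the amount of hypothalamus had a part in the th2 differences was not tested.

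**Figure D4:**
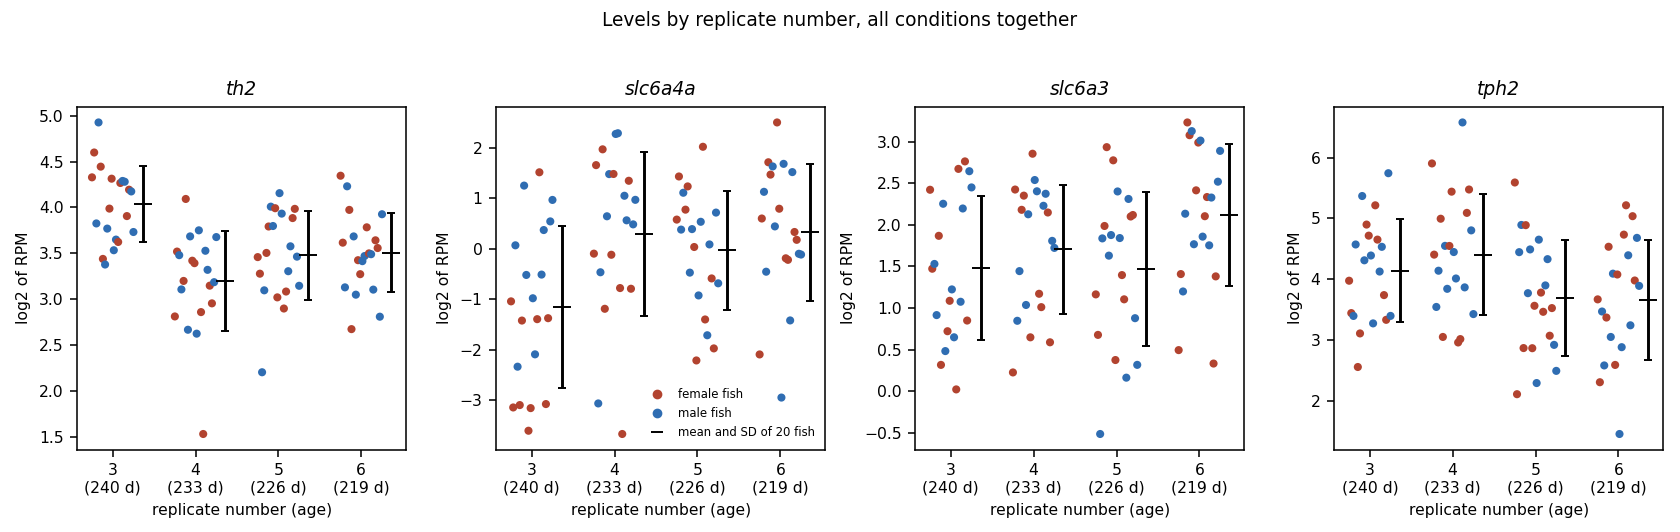
Levels of th2, slc6a4a, slc6a3 and tph2 (log2 of RPM, vertical axis) in the 20 fish of each replicate number, with the age of the fish in days (horizontal axis). Points are fish, females in red and males in blue, and black marks are means and SDs. The mean of th2 is 4.03 in number 3 and 3.20 in number 4, and that of slc6a4a is -1.15 in number 3 and 0.30 in number 4.

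Fish to fish, the members fell into a group that moved together and others that did not. Of 36 pairs among the 9 tested members, 14 had an adjusted permutation p for Pearson's r of at most 0.05 over the 80 fish, and all 14 had r above 0. The strongest tie was between ddc and tph1a (r = 0.72, Spearman's rho = 0.71). Next came ddc and tph2 (r = 0.68, rho = 0.67), tph1a and tph2 (r = 0.60, rho = 0.57) and ddc and mao (r = 0.58, rho = 0.53). For these 4 pairs the permutation p was 1e-05, which no test with 100000 permutations can go below, and the adjusted p was 9e-05. Without the 2 fish farthest from the median, r was 0.66, 0.63, 0.53 and 0.52 for these pairs, and within single numbers ddc and tph1a had r of 0.52 to 0.85. The 80 fish come from 20 exposure replicates, so they are not fully independent. The genes th2 and dbh were in none of the 14 pairs, though th2 had ties once group and number were taken out, as given below.

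The tie between slc6a3 and slc6a4a (r = 0.40, adjusted p = 0.0009) had an r of 0.003 once group, number and the composition component were taken out. Those of th with slc6a3 and of th with slc6a4a (r = 0.29 and 0.38) were both 0.11. The ties of ddc with tph1a and with tph2 were 0.73 and 0.72 after the same step. Other pairs passed only once group and number were out. With the component out too, th2 and slc6a3 had r of 0.53 (adjusted permutation p = 7.2e-05), from 0.20 before. For th2 and tph1a r was 0.33 (adjusted permutation p = 0.0084), from 0.22, and for tph2 and slc6a4a 0.36 (0.0033), from 0.19. No pair with dbh passed.

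Both tryptophan hydroxylase genes and ddc moved with genes of the pineal gland and retina. A list of 7 such genes (the melatonin enzymes aanat2 and asmt, the transcription factor crx, and rho, gnat2, opn1sw1 and opn1lw1 of the light response) had a summed level that correlated with tph2 (r = 0.83, rho = 0.85), with ddc (r = 0.53, rho = 0.57) and with tph1a (r = 0.53, rho = 0.51). For all 3 the permutation p was again at that lower limit of 1e-05, with an adjusted p of 0.00016 over 160 relations between members and lists. The serotonin transporter gene slc6a4a had r of 0.21 with the list (adjusted p = 0.182, permutation), and slc18a2 had r of -0.10. Within numbers r for tph2 lay between 0.80 and 0.87, and without the 2 fish farthest from the median it was 0.84. The fish lie unevenly along the list. In the 40 fish above its median, tph2 ran from 3.78 to 6.58 on the log2 scale and had r of 0.61 with the list, and in the 40 below, from 1.45 to 4.14 with r of 0.16. For tph1a and ddc r with the list was 0.31 and 0.39 in the fish above and 0.02 and 0.04 in the fish below. With aanat2 and asmt alone r was 0.84 for tph2 over all fish, and 0.81 in the fish above and 0.22 in the fish below the median of these genes. For tph1a and ddc it was 0.69 and 0.65 in the fish above and -0.10 and 0.15 in the fish below. A summed list of 5 raphe genes (fev, gata2a, gata3, lmx1bb and lmx1ba) had r of -0.09 with tph2 (adjusted p = 0.631, permutation). This sum mostly reflects gata3, with a mean of 178 RPM beside 28.4 for gata2a and 5.29 for lmx1bb. The gene fev, a transcription factor of serotonin neurons, had a mean of 0.700 RPM and no reads in 8 fish. Its r with tph2 was 0.26 (permutation p = 0.0181, 0.0204 adjusted over 9 pairs picked after their values were seen). After group and number were taken out it was 0.14. Whether tph2 moves with the number of raphe cells was not tested.

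By condition, the pineal and retina list averaged 5.50 ± 1.54 in POP10 and 4.55 ± 1.54 in control on the log2 scale (SD, n = 16). Its mean was 4.88 ± 1.64 in PFOS10, 4.71 ± 1.39 in POP70 and 4.53 ± 1.56 in PFOS70. These means differed by less than their SDs. The mean level of tph2 was 4.25 ± 0.94 in POP10 and 3.90 ± 1.07 in control, and whether the list has a part in that difference was not tested. With the list in the model, 0 of 9 members were called in any exposure, as without it, so this count does not bear on the tph2 difference.

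**Figure D5:**
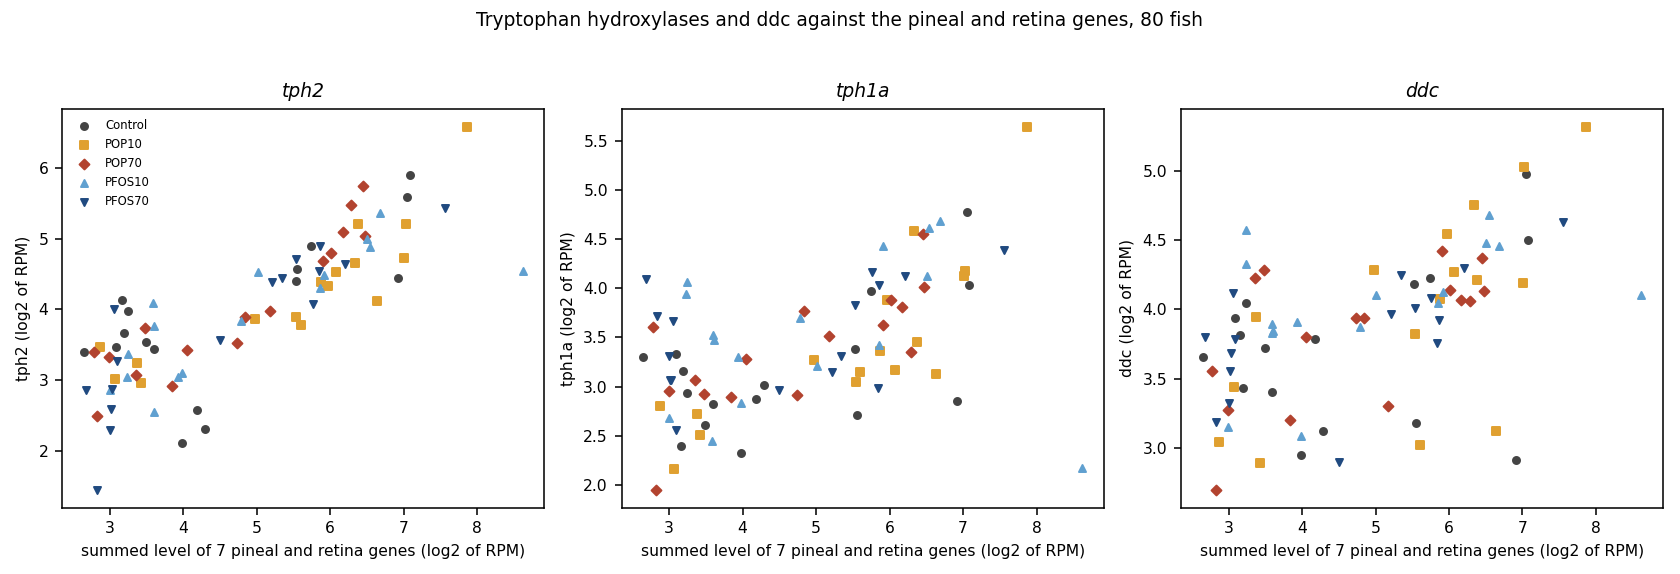
Level of tph2, tph1a and ddc (log2 of RPM, vertical axes) against the summed level of 7 pineal and retina genes (log2 of RPM, horizontal axis) in 80 fish, marked by condition. The tph2 panel has r of 0.83 over all fish, and all conditions are spread along the list.

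Other partners of the same pathway varied with the members as well. The first enzyme of tetrahydrobiopterin synthesis, gch1, correlated with ddc (r = 0.77, rho = 0.71) and with slc6a3 (r = 0.67, rho = 0.69). The noradrenaline transporter gene slc6a2 correlated with tph2 (r = 0.78, rho = 0.82) and with the melatonin enzyme gene asmt (r = 0.83, rho = 0.84), but not with dbh (r = -0.18, permutation p = 0.107). The vesicular and the dopamine transporter genes slc18a2 and slc6a3 had r of 0.74 (rho = 0.72), and 0.52 after group, number and the composition component were taken out. These pairs, except slc6a2 and dbh, had permutation p of 1e-05 and adjusted p of 1.29e-05 over 9 pairs, which were picked after their values were seen. The level of mao correlated with the summed level of 5 astroglial genes (r = 0.58, rho = 0.55, adjusted p = 0.00016).

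The tested genes most like each member, by r of the residuals from group and number means over the 80 fish, are given as a description. For tph2 they were rcvrn3 (r = 0.89), pde6ga (0.89) and grk7a (0.88), all named for proteins of photoreceptors. For tph1a they were asip2b (0.83), a gene known from the fish pineal gland, bsx (0.80), a homeobox gene, and ddc (0.75). For ddc they were asip2b (0.78), gch1 (0.76) and inaa (0.76). For th2 they were the T-box genes tbx2a (0.69) and tbx3a (0.67) and the peroxiredoxin gene prdx1 (0.65). For slc6a3 they were an entry named UNC13B (0.77), shisal1a (0.77) and the homeobox gene nkx2.4b (0.76), and for slc18a2 the Wnt receptor gene fzd5 (0.77), nkx2.4b (0.76) and shisal1a (0.76). For mao they were gnai2a (0.79), lasp1 (0.77) and brinp3a.1 (0.77), and for slc6a4a the glutamate receptor gene gria3a (0.69) and lrfn4a (0.68) led. For th no r was above 0.51 (si:dkey-40m6.8, zbtb12.2 and ahr1b), and for dbh anxa3b (0.64), swi5 (0.62) and katnal2 (0.57) led.

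Of the wider pathway, 47 genes of 5 lists were tested beside the members: 8 for cofactor and precursor, 6 for synthesis paralogs and end products, 9 for transport and storage, 7 for breakdown and 17 transcription factors of monoamine neurons. None of the 47 was called in any exposure or between the sexes. In PFOS10 6 of 47 had an unadjusted p under 0.05, where 13.9% of all tested genes did, so the list did not stand above the background. Among the 6 was the tetrahydrobiopterin enzyme pts with a log2 difference of 0.84 ± 0.30 (SE, adjusted p = 0.354, limma). Across numbers 21 of 47 were called, or 44.7% beside 61.6% of all genes. In number 4 against number 3, 4 of 8 cofactor genes were called, all higher, and 4 higher and 1 lower of 9 transport genes. The list of transcription factors had 5 of 17 higher and 0 lower. Over all tested genes 41.7% were higher and 5.29% lower in this comparison, so these counts are near or below the background. The synucleins sncgb and sncb of the transport list were 1.24 ± 0.22 and 0.64 ± 0.11 higher (SE, adjusted p of 6.8e-06 and 8.0e-06), and the homeobox gene lmx1al 2.096 ± 0.47 higher (adjusted p = 0.000256). The first step of the cofactor pathway, gch1, was 0.59 ± 0.25 higher (adjusted p = 0.0494).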

How the data were processed

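The table holds, as deposited, log2 values of reads per gene scaled per library by the authors. Per the submitters' processing notes the tools were Trim Galore 0.4.5, STAR 2.5.4b, DESeq2 and R 3.5.0, with build GRCz11, and per the labels' protocols 2 µg of RNA was sequenced with 150 bp reads. The divisor behind the scale is not given in the sources used here, so RPM values are on the deposited scale. In the deposited log2 values a count of 0 stands as 0.9 read, and whole reads could be recovered from 100% of the values judged (within 0.02 of a whole read).

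Groups come from the labels. Comparisons were made with limma 3.58.1 in R 4.3.3 on the log2 values with 10 group means and a mean-variance trend, over the 16870 genes with a mean of at least 1 RPM, with Benjamini-Hochberg adjustment and a threshold of 0.05. Numbers were tested as an additive factor. Each exposure replicate entered the exact permutation tests as the mean of its 4 fish, and correlations used 100000 permutations (scipy 1.17.1, Python 3.11.15). The fit was also run on simulated reads. These were drawn independently for each fish, so that run cannot show how p-values behave when fish share an exposure replicate. Each library is 1 fish, and no pair of libraries in a group agreed within counting noise (chi-square per degree of freedom at least 11.2 over 280 pairs). Since 4 fish share an exposure replicate, p-values over fish may be too small. Same-numbered fish share an age in the labels. Same-numbered exposure replicates deviated together with a median correlation of 0.25 over 40 pairs (-0.07 to 0.80), 36 of them over 0.1. Counting intervals and floors cover counting error only.

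The set of members, a fixed list of symbols, and all gene lists were drawn up with earlier results of these data known. Members are named in full. Of the pathway genes up to 4 per comparison are named by smallest p, and the 3 most alike genes by r of residuals. The genes pts and gch1 and the 9 pathway pairs were picked after their values were seen. No sequences are shown.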

Additional observations from a re-analysis of the deposited data

Results flagged for a closer look

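In 8 of 150 groups of fish or exposure replicates 1 value stood far from the others, close to 1 in 20. Such a share can arise by chance. It was not tested, because the groups share fish and some members vary together. All values are on the log2 scale. Among single fish, the lowest POP70 male had a th level of 2.54, where the next was 3.53. The lowest PFOS70 female had a dbh level of 0.459 (next 1.60), and the lowest PFOS10 female a slc6a3 level of 0.318 (next 1.87). In POP10 males the highest fish had 5.64 for tph1a (next 3.88) and 6.58 for tph2 (next 4.53), and both values belong to the same fish. Among exposure replicate means in PFOS10, the lowest was 1.30384 for dbh (next 1.76), the highest was 1.45 for slc18a2 (next -0.45) and the highest was 6.73 for mao (next 6.52).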

How the results depend on the processing

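No member was called in any exposure, sex or level comparison under any alternative run, the replicate block included, where the count was 0 as well. Across numbers 2 members were called, and 1 with a filter at a mean of 10 RPM (which leaves slc6a4a out), with library weights or with the composition component. With quantile normalization the count was 2 again, but tph2 was called (limma, adjusted p = 0.0273) and slc6a4a was not (0.303). Leaving out 1 number at a time gave 0 (without number 3) to 2. With the composition component, the difference of slc6a4a was -0.0597 in PFOS10 and -0.14 in number 6 against 3. That of slc6a3 was -0.26 in number 6 against 3. The cause of these changes was not tested. The latter slc6a3 call was also lost without a filter on low values (limma, adjusted p = 0.0618) and with quantile normalization (0.692). The slc6a3 difference in PFOS10 ran from 0.39 to 1.16 over the alternatives. Over all genes, calls ran from 0 to 9 in POP70 (0 in the fit reported, 9 with the replicate block), from 0 to 5 in POP10 (2), from 0 to 7 in PFOS10 (1) and from 0 to 1 in PFOS70 (0). For any exposure they ran from 0 to 1429 (5), with 1429 without number 3, for sex from 39 to 422 (176), and across numbers from 5797 to 10927 (10391). Of 36 member pairs 14 passed, 17 after group and number were taken out and 12 with the composition component taken out too. The planned edgeR alternative was not run, because the deposited values are log2 values. A voom fit on recovered reads, chosen after seeing the data, took its place. Low reads limit slc18a2 (median 3 per fish) and slc6a4a (median 10).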

Other observations

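The 6 tested genes most like dbh, by r of residuals over 80 fish, all lie on chromosome 10, as dbh does, while 3.60% of tested genes lie there. They start 0.165 Mb (swi5), 1.32 Mb (anxa3b), 3.93 Mb (katnal2), 5.05 Mb (smc5), 7.12 Mb (drg1) and 16.3 Mb (fam89b) from dbh. Of the other 9 members, tph2 had 1 of its 6 most alike genes on its own chromosome and the other 8 had 0. This was noticed after the values were seen and was not tested.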
